A study of Caenorhabditis elegans with 64 samples.

Results

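The major sperm protein (MSP) genes of Caenorhabditis elegans were taken as all genes whose WormBase symbol begins with msp- or msd- (msd stands for an MSP domain gene). They numbered 39 of the 31106 genes in the small RNA tables and of the 45904 gene names in the mRNA tables, namely 35 msp and 4 msd genes. Of the msp genes, 31 are protein-coding and 4 (msp-37, msp-42, msp-52 and msp-71) are annotated as pseudogenes. All 4 msd genes are protein-coding. The genes lie on chromosome II (15 genes), chromosome III (msd-4 alone) and chromosome IV (23 genes).

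Levels of mRNA were measured in simr-1 and wild-type animals, with 3 libraries per group, and levels of small RNAs in the same groups with 2 libraries each. simr-1 animals carried the deletion allele cmp36 of the gene encoding SIMR-1, a Tudor domain protein of the germline small RNA machinery, and wild-type animals were the N2 strain. Both strains were sampled at 20 °C and in generations 1, 2, 7 and 10 of growth at 25 °C, as whole worms labelled day 1 adults, about 10000 per sample, grown from synchronized larvae for about 68 h at 20 °C or 48 h at 25 °C. Small RNAs were also measured in 14 strains at 20 °C with 1 library each: mut-16(pk710), rde-8(tm2252), nyn-2(tm4844); nyn-1(tm5004), rsd-2(pk3307), wago-1(tm1414), math-33(ok2974), simr-1(cmp36), hpo-40(cmp46), simr-1(cmp36); hpo-40(cmp46), C33G3.6(cmp44), F37C4.5(ok3454), hgo-1(tm4989), Y57G11C.3(cmp47) and wild-type. The labels call the 3 mRNA replicates biological but do not say this of the small RNA libraries, so p-values of the small RNAs measure the spread between libraries, which may be technical.

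MSP is the most abundant protein of nematode sperm. It forms filaments that push out the pseudopod on which the amoeboid sperm cell crawls, and it is also released from sperm as a signal that triggers oocyte maturation and ovulation. Hermaphrodites make their sperm as late larvae and switch to oocytes as adults, whereas males make sperm throughout adult life, and MSP genes are transcribed in developing sperm cells.

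The copies resemble each other closely, which bears on every value given for a single gene. Every protein-coding member has 1 coding exon, and 28 msp genes have a coding sequence of 384 bases. Over the 378 pairs of these 28 genes, identity of the coding bases lay between 86.2% and 99.48%, with a median of 92.45%. The 35 protein-coding members encode 15 distinct proteins. A single protein is shared by 13 genes (msp-40, msp-31, msp-45, msp-50, msp-142, msp-64, msp-53, msp-19, msp-51, msp-113, msp-59, msp-65 and msp-81) and another by all 4 msd genes. Of all 22-base windows of the coding sequences, the length of many small RNAs, 84.47% occur in another member too, and the share for 75-base windows is 46.72%. Per-gene values of these copies are therefore uncertain, and the summed level of the 39 genes is given beside them. msd-1 and msd-3 have identical coding sequences and cannot be separated by coding reads.

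The first 120 coding bases of 5 msp genes are shown because they make visible how little separates copies from the 3 chromosomal clusters. They were read from the RefSeq WBcel235 assembly, 5′ to 3′ on the coding strand, at msp-36 chrIV:10095433-10095552 (plus strand), msp-31 chrII:4916443-4916562 (minus strand), msp-40 chrII:4825414-4825533 (plus strand), msp-76 chrIV:9689015-9689134 (plus strand), msp-57 chrIV:5062578-5062697 (plus strand). Capitals mark bases that differ from msp-36, the member with the highest mean mRNA level, and over the whole coding sequence the differences number 30 (msp-31), 36 (msp-40), 16 (msp-76) and 30 (msp-57).
msp-36: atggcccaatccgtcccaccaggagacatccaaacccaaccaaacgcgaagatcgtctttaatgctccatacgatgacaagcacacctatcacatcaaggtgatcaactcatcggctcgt
msp-31: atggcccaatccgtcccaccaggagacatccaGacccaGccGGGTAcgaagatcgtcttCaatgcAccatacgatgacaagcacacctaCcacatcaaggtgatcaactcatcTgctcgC
msp-40: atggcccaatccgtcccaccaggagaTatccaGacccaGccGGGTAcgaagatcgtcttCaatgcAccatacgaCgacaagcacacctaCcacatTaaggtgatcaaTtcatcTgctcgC
msp-76: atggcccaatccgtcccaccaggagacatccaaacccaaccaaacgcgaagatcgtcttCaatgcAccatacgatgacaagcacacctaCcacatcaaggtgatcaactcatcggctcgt
msp-57: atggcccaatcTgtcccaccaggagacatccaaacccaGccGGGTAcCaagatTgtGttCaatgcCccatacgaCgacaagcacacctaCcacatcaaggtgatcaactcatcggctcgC

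The 100 bases before the gene start are shown for 7 members, with starts from the WS258 annotation of the small RNA tables. They are shown because the mRNAs described below moved together and these stretches hold letters that recur among members. They come from the same assembly, 5′ to 3′ on the strand of the gene, at msp-36 chrIV:10095298-10095397 (plus strand), msp-76 chrIV:9688882-9688981 (plus strand), msp-19 chrIV:5260454-5260553 (plus strand), msp-40 chrII:4825280-4825379 (plus strand), msp-33 chrII:4892729-4892828 (minus strand), msd-2 chrIV:10028955-10029054 (plus strand), msd-4 chrIII:4868770-4868869 (minus strand). Capitals mark GATAA on either strand.
msp-36: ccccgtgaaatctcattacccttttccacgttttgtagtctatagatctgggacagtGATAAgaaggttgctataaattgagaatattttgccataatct
msp-76: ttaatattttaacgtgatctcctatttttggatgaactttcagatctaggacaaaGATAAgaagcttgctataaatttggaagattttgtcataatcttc
msp-19: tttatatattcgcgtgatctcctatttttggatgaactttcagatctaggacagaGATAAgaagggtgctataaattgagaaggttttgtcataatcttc
msp-40: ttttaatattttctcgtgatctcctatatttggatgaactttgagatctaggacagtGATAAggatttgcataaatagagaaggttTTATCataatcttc
msp-33: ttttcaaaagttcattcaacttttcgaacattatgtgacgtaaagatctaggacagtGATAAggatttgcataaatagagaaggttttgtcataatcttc
msd-2: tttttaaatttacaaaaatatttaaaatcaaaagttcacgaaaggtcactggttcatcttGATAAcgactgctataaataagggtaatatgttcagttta
msd-4: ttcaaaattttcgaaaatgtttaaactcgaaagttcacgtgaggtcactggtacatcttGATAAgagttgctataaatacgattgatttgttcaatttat

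In the 250 bases before the gene start, GATAA or its reverse complement TTATC was found in 25 of 31 protein-coding msp genes (80.6%) and in all 4 msd genes, against 52.1% of the 19689 protein-coding genes searched. At one position range the contrast was wider. GATAA on the gene strand with its first base 36 to 51 bases before the start occurred in 20 of 31 msp genes (64.5%) and in all 4 msd genes, against 2.27% of all genes. The palindrome ACGT occurred in 28 of 31 msp genes and 4 of 4 msd genes, against 44.5% of all genes, and TATAAA or TTTATA in 25 of 31 and 4 of 4, against 34.9%. The 12-base run shared by more msp genes than any other, AGATCTAGGACA or its reverse complement, occurred in 14 of 31 msp genes (45.2%), in 0 of 4 msd genes and in 23 of all genes (0.117%). The range of positions and the 12-base run were chosen from these sequences, so their shares among members are a description. Several copies have near-identical flanks, motifs were searched on both strands unless stated and may overlap at their ends, and a match describes letters in this window, not a binding site.

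Counted reads lay between 8055126 and 38633453 per mRNA library, between 2835252 and 12893224 per replicated small RNA library and between 2392511 and 50329478 per single library. Of these, the 39 genes took 661 to 21184 reads per mRNA library and 54 to 719 per replicated small RNA library, with 0 to 8 and 0 to 13 members at 0. The simr-1 mRNA itself was at 6.23 to 29.1 CPM (counts per 1000000, scaled by the trimmed mean of M values, TMM) in the 15 simr-1 libraries and at 45.3 to 230 CPM in the 15 wild-type libraries. Summed oocyte markers, 12 genes such as the eggshell gene cbd-1 and the yolk receptor gene rme-2, set 3 groups apart. They summed to 5799 to 7166 CPM in simr-1 libraries of generation 2, 3779 to 4558 CPM in wild-type libraries of generation 1 and 3688 to 6352 CPM in wild-type libraries of generation 2, and to 13514 CPM or more in every library of the other groups. A list of 10 markers of molting larvae summed to 128 to 139 CPM, 270 to 272 CPM and 221 to 276 CPM in these groups and to 58.5 to 189 CPM in the others, and all samples are labelled day 1 adults. In bulk worms, fewer cells of a type and less RNA per cell cannot be told apart.

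In the second generation at 25 °C, MSP mRNAs were several times more abundant in simr-1 than in wild-type animals. The 39 genes together reached 564, 808 and 683 CPM in the simr-1 libraries, against 97.4, 120 and 101 CPM in the wild-type libraries, which is a 6.45-fold difference of the means (685 ± 122 CPM in simr-1, 106 ± 12.1 CPM in wild-type, SD, n = 3 each). Each simr-1 library of this generation was above each of the other 27 mRNA libraries. By edgeR's quasi-likelihood test, with p-values adjusted (Benjamini-Hochberg) over all genes and a 2-fold minimum, 35 of 37 tested members rose and 0 fell, where 12.2% of all tested genes rose. The log2 fold changes ran from 0.45 to 3.46 with a median of 2.67, against a median of -0.02 over all genes tested. Not past the test were msp-32 and msd-1, and msp-74 and msp-37 had too few reads to be tested. For 35 of the 39 members every simr-1 library lay above every wild-type library, as for 24.9% of all genes tested.

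**Figure D1:**
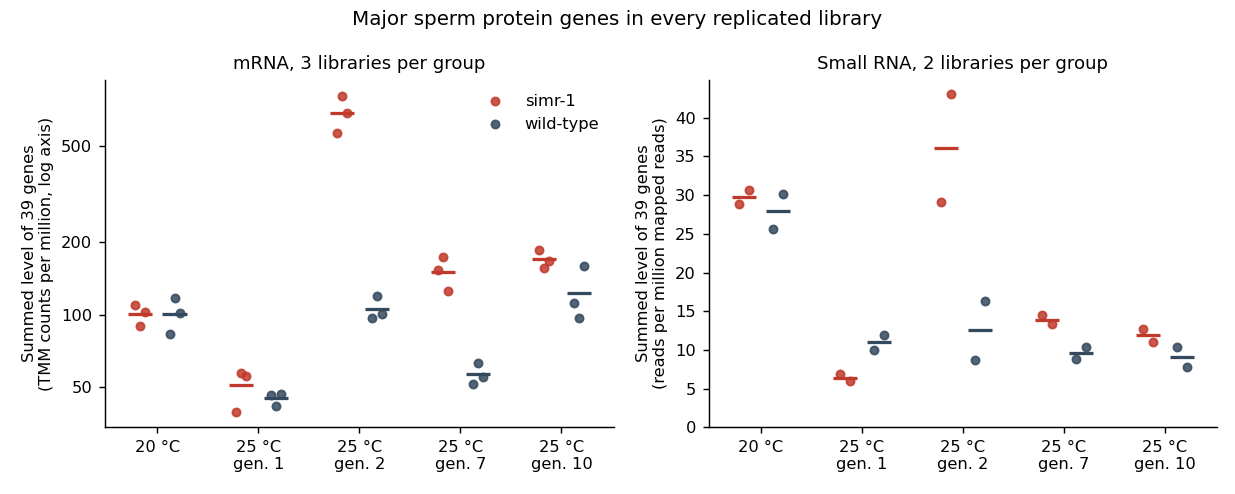
Summed level of the 39 genes in each replicated library, with mRNA on the left (CPM, log axis, 3 libraries per group) and small RNA on the right (RPM, 2 libraries per group); points are libraries and bars are group means. The simr-1 libraries of generation 2 at 25 °C stand above all others for mRNA, at 564 to 808 CPM, and those of the first generation sit lowest for small RNA, at 6.03 and 6.85 RPM.

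msp-36 had 31.8, 48.3 and 44.2 CPM in simr-1 libraries of generation 2, against 4.93, 6.57 and 6.19 CPM in wild-type libraries, a log2 fold change of 2.88 ± 0.19 (SE, adjusted p = 3.58e-06 by edgeR's quasi-likelihood test). msp-31 was at 33.7, 44.9 and 41.1 CPM in simr-1 against 4.14, 6.13 and 4.81 CPM in wild-type libraries (log2 fold change 3.06 ± 0.18). In the annotation msp-31 overlaps aagr-2 on the same strand. msp-40, which encodes the same protein as msp-31, was at 27.1, 39.3 and 32 CPM in simr-1 against 4.49, 4.90 and 4.03 CPM in wild-type (2.93 ± 0.17). The groups did not overlap for any of these genes, and in each the lowest simr-1 library was more than 4 times as high as the highest wild-type one. msp-76, one of 4 genes that share the protein of msp-36, was at 24, 34.2 and 28.5 CPM in simr-1 against 4.43, 6.18 and 6.14 CPM in wild-type (2.43 ± 0.19). msp-33, which overlaps gst-9 on the opposite strand, was at 20.9, 29.8 and 28.8 CPM in simr-1 against 2.71, 3.23 and 2.5 CPM in wild-type (3.29 ± 0.19). msp-3 was at 16.9, 28.1 and 20.8 CPM in simr-1 against 2.25, 3.12 and 1.77 CPM in wild-type (3.27 ± 0.25). The second simr-1 library was the highest of the 3 for all 6 genes. At the low end of expression, msp-63 showed the largest fold change of the called members (log2 3.46 ± 0.39, adjusted p = 8.11e-05 by edgeR's quasi-likelihood test). It was at 1.09, 1.66 and 1.37 CPM in simr-1 against 0.146, 0.111 and 0.0982 CPM in wild-type.

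The msd genes, which encode a shorter sperm protein with an MSP domain, moved with the msp genes. msd-2 was at 25.5, 36.5 and 33 CPM in simr-1 libraries of generation 2 against 3.62, 3.45 and 3.58 CPM in wild-type (log2 fold change 3.21 ± 0.16). msd-4, the only member on chromosome III, was at 25.4, 37.8 and 30.6 CPM in simr-1 against 3.97, 4.18 and 4.03 CPM in wild-type (3.00 ± 0.17). msd-3 was at 12.4, 21.5 and 16.4 CPM in simr-1 against 2.22, 2.17 and 2.80 CPM in wild-type (2.86 ± 0.22). All 3 passed the test. msd-1, which has the same coding sequence as msd-3, was listed at 0.878, 0.50 and 0 CPM in simr-1 and at 0.204, 1.06 and 0 CPM in wild-type. Reads of msd-1 and msd-3 cannot be divided reliably. The make-up of the family differed little between the genotypes: msp-36, the top member, held 6.05% of the summed level in simr-1 and 5.56% in wild-type animals of this generation, the 10 highest members held 46.8% and 46.5%, and the msd genes 11.7% and 9.83%.

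**Figure D2:**
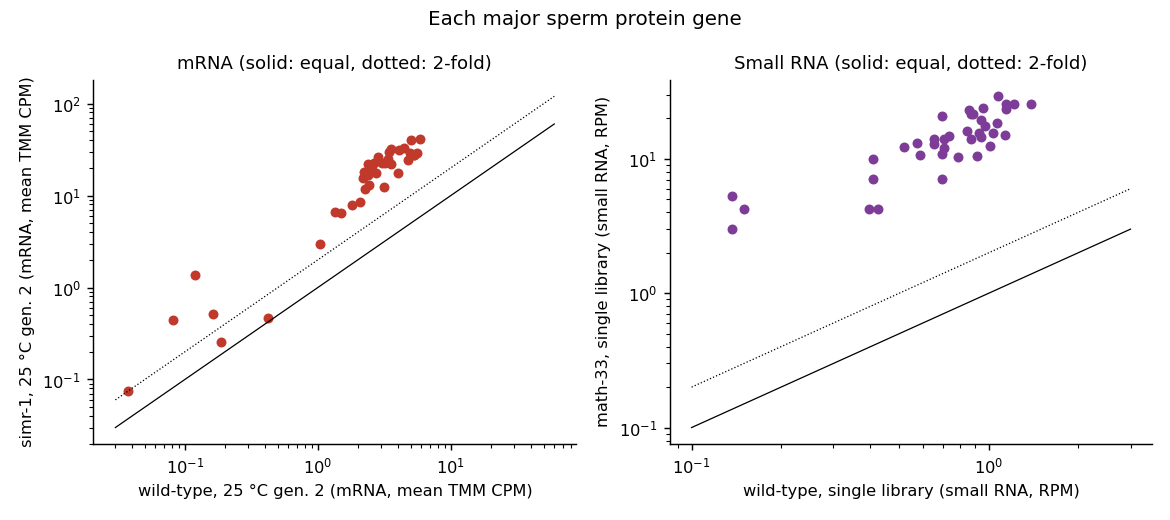
Each point is a member. On the left, mean mRNA level of 3 simr-1 libraries against that of 3 wild-type libraries in generation 2 at 25 °C; on the right, small RNA level in the single math-33 library against the single wild-type library at 20 °C (both axes logarithmic; members with a mean of 0 in either group are not drawn). Most points of the left panel lie above the dotted 2-fold line and all points of the right panel do, where msp-56 is highest at 29.2 RPM in math-33 against 1.08 RPM in wild-type.

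In the other generations the difference between genotypes was smaller. At 20 °C the summed level was 101 ± 10.4 CPM in simr-1 and 101 ± 17 CPM in wild-type animals. Of 33 tested members 0 rose and 1 fell, where 1.20% of all tested genes fell. This was msp-65, at 0.441, 0.492 and 0.396 CPM in simr-1 against 0.631, 2.02 and 0.950 CPM in wild-type libraries (log2 fold change -1.56 ± 0.47, adjusted p = 0.0321 by edgeR's quasi-likelihood test), and DESeq2 called 0 of the 31 members to which it gave an adjusted p. In the first generation at 25 °C the summed level was 51.0 ± 9.83 CPM in simr-1 and 45.1 ± 2.62 CPM in wild-type animals. No member of 33 passed edgeR's quasi-likelihood test with the 2-fold limit, where 29.7% of all tested genes passed in either direction. Below that limit 4 members passed the adjusted p, 3 higher and 1 lower in simr-1. DESeq2 called 0. In the same generation 11 of 12 oocyte markers passed the test as higher in simr-1, where 7.98% of all tested genes rose. Their part in the MSP levels was not tested.

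By generation 7 the 39 genes together were at 153, 173 and 125 CPM in simr-1 against 51.5, 63.2 and 55.2 CPM in wild-type libraries, a 2.66-fold difference of the means. Of 37 tested members 25 rose and 0 fell, against 7.83% of all tested genes rising, and the median log2 fold change was 1.47. All 37 were positive, and for 31 of the 39 the groups did not overlap with simr-1 higher, as for 23.5% of all genes tested. msp-36 was at 9.64, 11.8 and 6.58 CPM in simr-1 against 2.66, 3.12 and 2.72 CPM in wild-type (1.74 ± 0.20), and msd-4 at 6.56, 7.61 and 5.33 CPM in simr-1 against 1.81, 2.27 and 2.09 CPM in wild-type (1.67 ± 0.16). The largest called change was again that of msp-63 (2.90 ± 0.68), which rests on few reads, at 0.319, 0.222 and 0.219 CPM in simr-1 against 0.0708, 0.0274 and 0 CPM in wild-type. In this generation the oocyte markers were at 14042 ± 722 CPM in simr-1 and 16384 ± 907 CPM in wild-type animals, and 0 of 12 passed the test in either direction.

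At generation 10 the difference had narrowed and was no longer of 1 sign. The summed level was 170 ± 15.2 CPM in simr-1 and 123 ± 32.9 CPM in wild-type animals, and wild-type replicate 3, at 160 CPM, lay inside the simr-1 range of 156 to 186 CPM. Of 34 tested members 3 rose (msp-3, msp-142 and msd-4), where 2.24% of all tested genes rose, and 2 fell (msp-51 and msp-65), where 8.98% of all fell. With the replicate number as a block 2 rose and 4 fell, and without wild-type replicate 3 the counts were 9 and 1. Every simr-1 library was above every wild-type library for 17 of 39 members, as for 24.8% of all tested genes. msp-3 was at 5.71, 6.57 and 6.72 CPM in simr-1 against 3.28, 1.41 and 3.38 CPM in wild-type (log2 fold change 1.26 ± 0.24). msp-65 was at 0.544, 0.381 and 0.535 CPM in simr-1 against 2.19, 1.16 and 2.33 CPM in wild-type (-1.91 ± 0.38, adjusted p = 0.000582). It was also the member that fell at 20 °C. In generation 2 it was at 2.08, 4.22 and 2.60 CPM in simr-1 against 0.963, 0.891 and 1.28 CPM in wild-type (1.54 ± 0.31).

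The median fold change differed between groups of members by place in the genome, with overlapping ranges. The 10 members on the left of the chromosome IV genes (msp-55 to msp-65, positions 5055631 to 5316906) had the lowest median in all 5 genotype comparisons. The others were the 15 on chromosome II, of which 10 to 14 were tested, and the 13 on the right of chromosome IV (positions 9689015 to 10144175), of which 11 or 12 were tested. In generation 2 the medians were 2.19 for the left group (1.54 to 2.75), 3.00 for chromosome II (0.55 to 3.46) and 2.64 for the right group (0.45 to 3.21). In generation 10 they were -0.71, 0.85 and 0.59, and both members that fell there, msp-51 and msp-65, belong to the left group. At 20 °C they were -0.47, 0.12 and 0.08. Members within a group share libraries and near-identical sequence, so no test was made between the groups. The left group includes 6 of the 13 genes that encode 1 protein (msp-53, msp-19, msp-51, msp-113, msp-59 and msp-65). The rest of the 13 lie in the other groups, and how many reads fit copies of different groups was not measured.

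**Figure D3:**
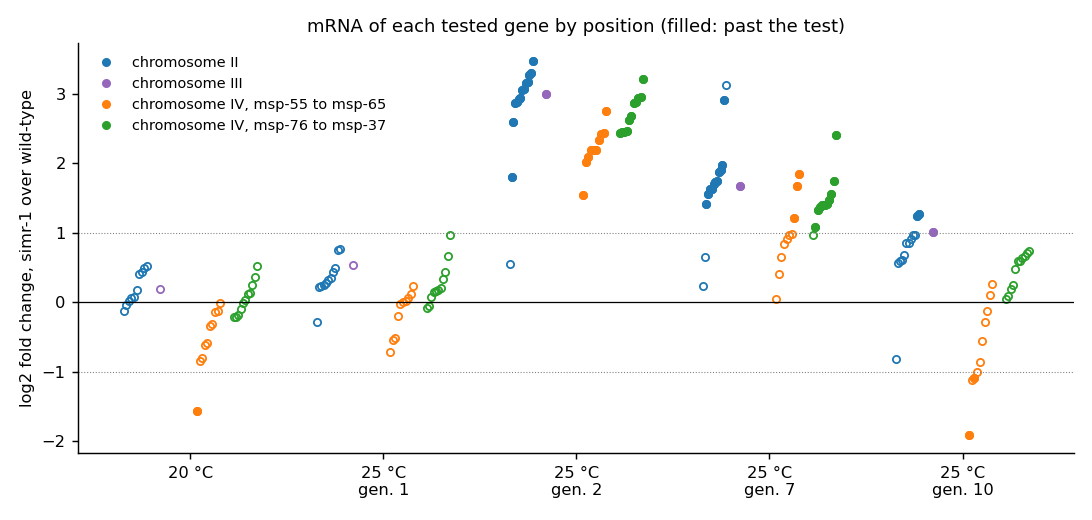
Log2 fold change of mRNA, simr-1 over wild-type, for each tested member except msd-1, in 5 conditions; colours give the position in the genome, members are sorted by value within a colour, filled points passed the test and dotted lines mark a 2-fold change. The genes from msp-55 to msp-65 have the lowest median of the 3 larger groups in each condition, 2.19 in generation 2 and -0.71 in generation 10.

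Along the temperature series the summed MSP mRNA of both genotypes was lowest in generation 1. In simr-1 animals the sums were 101, 51.0, 685, 151 and 170 CPM at 20 °C and in generations 1, 2, 7 and 10, and in wild-type animals 101, 45.1, 106, 56.6 and 123 CPM. In simr-1 generation 1 against 20 °C, 17 of 34 tested members fell and 0 rose (median log2 fold change -0.98), where 3.32% of all tested genes fell. In wild-type generation 1 against 20 °C, 19 of 33 fell and 0 rose (median -1.10), where 8.50% of all fell. The simr-1 count was 9 without replicate 1 of generation 1, and the wild-type count was 11 without replicate 2 of the 20 °C group. In generation 10 against generation 1, 26 of 35 members rose in simr-1 (median 1.68), where 12.2% of all tested genes rose, and 25 of 34 rose in wild-type (median 1.39), where 16.6% of all rose. These comparisons share the libraries of generation 1.

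The generation 2 values were set against generation 1 in comparisons added after the data had been seen. In simr-1, 36 of 37 members rose (median 3.77), where 26.4% of all tested genes rose. In wild-type, 24 of 36 rose (median 1.39), where 7.49% of all rose. Whether the change between generations differed between genotypes was tested as an interaction. For generation 10 against generation 1, 0 of 36 members passed with the 2-fold limit by edgeR's quasi-likelihood test, where 18.6% of all tested genes passed in either direction. 5 members had an unadjusted p under 0.05, DESeq2 called 0 of the 34 with an adjusted p, and msp-31 (0.90) and msp-81 (0.82) passed the adjusted p below the fold limit. For generation 2 against generation 1, 31 of 37 members passed as rising more in simr-1 and 0 as rising less (median log2 difference 2.53), where 16.7% of all tested genes rose more in simr-1. The largest called difference was that of msp-63 (3.72, SE 1.2, adjusted p = 0.0160 by edgeR's quasi-likelihood test). In the same interaction all 12 oocyte markers passed as lower (median -1.56) and so did 5 of 6 yolk genes (median -2.72), where 5.05% of all tested genes were lower. These markers moved in the opposite direction to the MSP genes, and their part in the MSP difference was not tested.

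Genes that work with MSP in sperm were also higher in simr-1 animals of generations 2 and 7. Of 35 genes on a list of MSP partners and sperm proteins, 31 were found in the tables and 30 could be tested in generation 2, of which 24 rose in simr-1 animals and 0 fell (median log2 fold change 2.40), beside 12.2% and 5.45% of all tested genes. In generation 7, 17 of 30 rose (median 1.27), beside 7.83% of all. sss-1, a gene of sperm, was at 42.4 CPM in simr-1 and 5.99 CPM in wild-type animals in generation 2 (2.90 ± 0.23). gsp-3 and gsp-4, a pair of phosphatases that act on MSP dynamics in sperm, rose by 2.88 ± 0.22 and 2.39 ± 0.21, and spe-11, which sperm supply to the embryo, by 2.86 ± 0.20. fer-1, needed for membrane fusion when the sperm cell is activated, rose by 1.46 ± 0.31. spe-9, a sperm surface protein of fertilization, did not pass (0.81 ± 0.33), and ssp-37 had a value of -0.72 ± 0.14 that was below the fold limit. At generation 10, 3 of 29 rose and 0 fell, beside 2.24% and 8.98% of all genes. In the first generation 1 of 27 rose and 4 fell, beside 7.98% and 21.7% of all, and at 20 °C 0 of 23 rose and 1 fell, beside 1.90% and 1.20%. From 20 °C to generation 1 the list did not go the way of the MSP genes. Its sum was 61.8 ± 5.50 CPM in generation 1 and 44.8 ± 2.04 CPM at 20 °C in simr-1 animals, and 91.1 ± 5.49 CPM in generation 1 and 46.9 ± 2.09 CPM at 20 °C in wild-type animals (SD, n = 3 each). In simr-1, 2 of 24 rose (spe-6 and spe-41) and 0 fell, beside 10.4% of all tested genes that rose. In wild-type, 5 of 26 rose, ssp-37 among them, and 1 fell (ssp-9), beside 32.6% of all that rose.

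Upstream of these, fog-3, which commits germ cells to sperm, rose in generation 2 (2.43 ± 0.23), where 12.2% of all tested genes rose. It was the 1 gene of 4 that rose in a list of sperm fate and sperm gene transcription. It rose in simr-1 in all 5 conditions, however, also at 20 °C and in generation 1, where 0 MSP genes rose. At 20 °C it was at 2.94, 2.38 and 1.98 CPM in simr-1 against 0.394, 0.394 and 0.814 CPM in wild-type libraries (2.30 ± 0.33), and in generation 1 at 2.70, 2.58 and 3.25 CPM in simr-1 against 0.734, 0.637 and 0.418 CPM in wild-type (2.29 ± 0.27). The log2 fold changes were 1.83 in generation 7 and 1.05 in generation 10. In generation 2, fog-1, spe-44 and elt-1 had values of 0.25 ± 0.12, -0.10 ± 0.15 and 0.26 ± 0.17. Of 8 genes of the ALG-3/4 pathway, in which Argonautes of the male germline bind small RNAs, alg-3 (2.58 ± 0.22) and alg-4 (2.70 ± 0.17) rose. 0 of the 8 fell, beside 12.2% of all tested genes that rose and 5.45% that fell. alg-3 and alg-4 also rose in generation 7 (1.30 each), beside 7.83% of all. At 20 °C both fell, beside 1.20% of all. There alg-3 fell by 1.07 ± 0.28 and alg-4 by 1.49 ± 0.40 on the log2 scale, with at most 1.06 CPM in simr-1 libraries. On the receiving side in generation 2, 14 genes that carry the MSP signal in oocytes and sheath cells gave 0 that rose and 1 that fell. The 1 that fell was nmr-1 (-1.12 ± 0.33), and 1 of 14 is near the 5.45% of all tested genes that fell. The MSP receptor gene vab-1 was at 61.3 CPM in simr-1 and 75.7 CPM in wild-type animals.

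Markers of other cells were measured beside these. Of all tested genes in generation 2, 12.2% rose in simr-1 and 5.45% fell, and a single gene passing in a short list tells little beside these shares. In generation 2, 5 of 6 yolk genes of the adult intestine fell in simr-1, with a summed level of 23438 ± 2565 CPM in simr-1 and 65033 ± 21626 CPM in wild-type animals. Of 12 oocyte markers 0 passed the test, of 5 germline markers 0 passed, and of 10 molting markers noah-1 fell, with sums of 133 CPM in simr-1 and 246 CPM in wild-type. The 5 markers of the male soma were low, with a sum of 2.87 to 4.02 CPM in simr-1 and 1.67 to 2.51 CPM in wild-type libraries, and 1 of them, lov-1, rose, at 0.205 CPM in simr-1 and 0.0097 CPM in wild-type. Of 2 markers of the adult hypodermis, the collagen gene col-7 rose by 5.38 ± 0.26 and the other did not pass. The part of worm stage and of the make-up of the animals in the MSP difference was not tested.

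**Figure D4:**
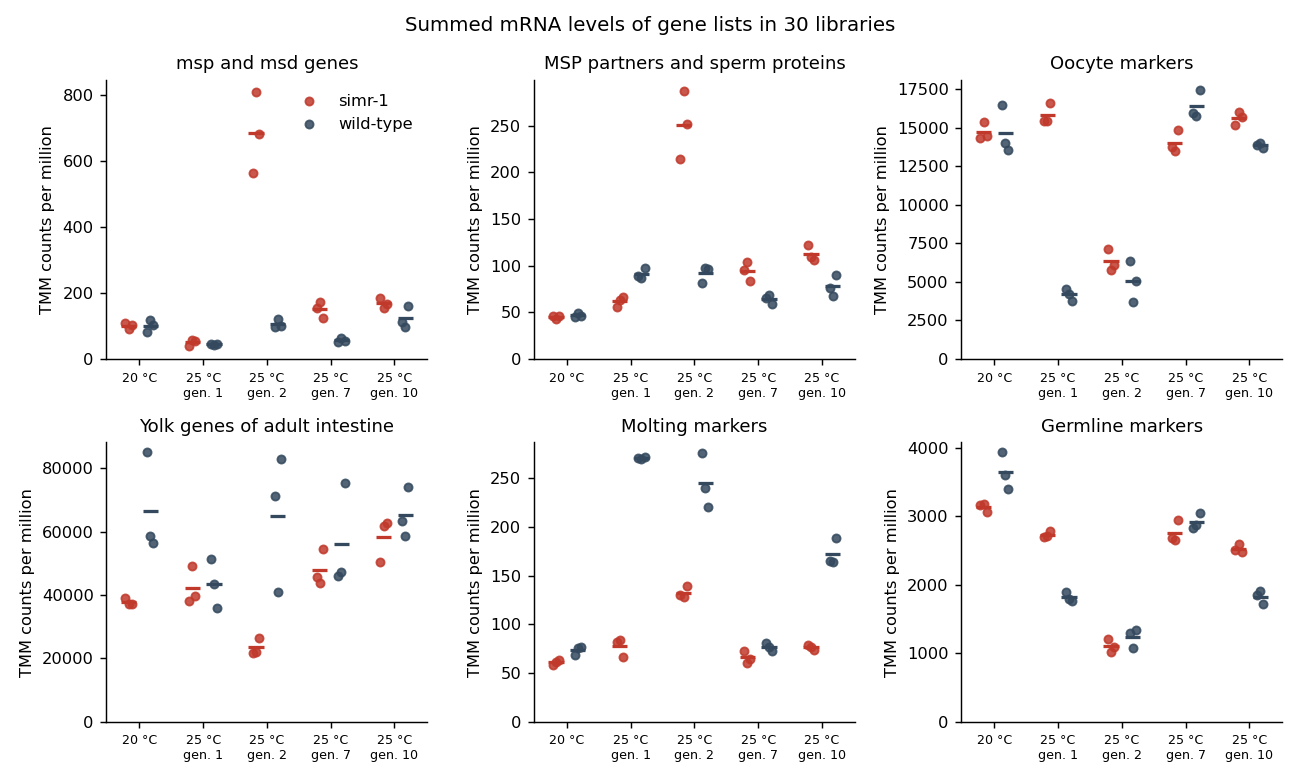
Summed mRNA level of the MSP genes and of 5 other lists in the 30 libraries (CPM, linear axes from 0; points are libraries, bars are means of 3). MSP genes and MSP partners are highest in simr-1 at generation 2, where MSP partners reach 214 to 287 CPM, while oocyte markers are low in that group and in wild-type animals of generations 1 and 2.

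Small RNAs assigned to MSP genes were scarce in every replicated library, and reads were counted without regard to strand. Levels are given as RPM (reads per 1000000 reads mapped to the genome). In simr-1 libraries the 39 genes together had 28.8 and 30.6 RPM at 20 °C, 6.85 and 6.03 RPM in generation 1, 29 and 43 RPM in generation 2, 14.5 and 13.4 RPM in generation 7, and 12.7 and 11 RPM in generation 10. In wild-type libraries they had 25.7 and 30.2 RPM, 9.97 and 12 RPM, 8.75 and 16.3 RPM, 8.82 and 10.4 RPM, and 10.4 and 7.78 RPM in the same order. Per mapped read, the sums of the genotypes did not overlap in any generation at 25 °C, while at 20 °C they overlapped. The simr-1 sums were lower in generation 1 (0.587-fold) and higher in generations 2 (2.87-fold), 7 (1.45-fold) and 10 (1.31-fold). Such separation was common among all tested genes. Every simr-1 library was below every wild-type library for 33.99% of them in generation 1. Every simr-1 library was above for 47.16%, 41.47% and 39.65% in generations 2, 7 and 10. The separation of the sums in generation 10 also depended on scaling. By TMM, wild-type replicate 1 was at 18.8 CPM, above simr-1 replicate 2 at 18.2 CPM. With 2 libraries against 2, an exact permutation test of such sums cannot reach 0.05, since its smallest two-sided p is 0.333, and no such test was made.

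By edgeR's quasi-likelihood test with a minimum of 10 RPM in either group, 0 members passed in any genotype comparison, since no single member reached 10 RPM. Of all tested genes 7.27% passed at 20 °C and 26.7%, 9.91%, 8.97% and 13.6% in generations 1, 2, 7 and 10. Unadjusted p-values under 0.05 were found for 2 of 35, 2 of 14, 10 of 37, 3 of 32 and 0 of 15 tested members. DESeq2 gave an adjusted p to 30, 14, 31, 25 and 6 members and called 0 in each comparison. Without the minimum level, 4 members rose in simr-1 of generation 2 (msp-40, msp-31, msp-71 and msd-3), where 5.15% of all tested genes rose, and 2 fell in generation 1 (msp-32 and msp-33), where 27.5% of all fell. DESeq2 called 0 of 31 and 1 of 14 in the same way. The count of 4 was 0 without simr-1 replicate 2, 2 without wild-type replicate 1, 7 without wild-type replicate 2, 12 without simr-1 replicate 1 and 10 with a replicate block, and the count of 2 was 1 without wild-type replicate 2 of generation 1. msp-40 had 1.33 and 1.32 RPM in simr-1 libraries of generation 2, against 0.292 and 0.396 RPM in wild-type libraries. msp-56, the member with the highest mean small RNA level, had 1.52 and 2.1 RPM in simr-1 against 0.584 and 1.19 RPM in wild-type and did not pass. msp-81, the next highest, had 1.89 and 2.21 RPM in simr-1 against 0 and 0.890 RPM in wild-type and did not pass either. The pseudogene msp-71 had 0.821 and 1.02 RPM in simr-1 against 0.146 and 0.198 RPM in wild-type.

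Within simr-1 the small RNAs changed in the same direction at many members, again only without the minimum level. Between generation 1 and 20 °C, 23 of 34 tested members fell and 0 rose (median -1.96), where 12.5% of all tested genes fell. The count was 11 without replicate 2 of generation 1, and DESeq2 called 4 of the 24 members with an adjusted p. Between generation 2 and generation 1, 35 of 37 rose (median 2.93), where 16.7% of all rose, with 24 to 34 when 1 library was left out and 18 of 32 by DESeq2. Between generation 10 and generation 1 msp-40 alone rose of 14 tested, where 4.64% of all rose, and 0 did with any 1 library left out. In wild-type, 0 of 23 members passed between generation 1 and 20 °C and 0 of 18 between generation 2 and generation 1, each with 0 at an unadjusted p under 0.05. DESeq2 called 0 of 23 in the first and gave no member an adjusted p in the second, and 2 members fell in the first without replicate 2 of generation 1. msp-32 fell in wild-type between generation 10 and generation 1, as 1 of 13, where 17.7% of all fell, and 0 did without replicate 1 of generation 1 or by DESeq2. In the interactions 4 of 37 members rose more in simr-1 for generation 2, where 6.40% of all tested genes did, and 3 of 31 for generation 10, where 8.58% did. The count of 4 was 10 without simr-1 replicate 1 of generation 2 and 2 without replicate 2 of generation 1 of simr-1 or of wild-type. The count of 3 was 0 without simr-1 replicate 1 of generation 10 and 1 without wild-type replicate 2 of generation 1 or of generation 10. In generation 2, thus, both the mRNA and the small RNA sum were higher in simr-1 than in wild-type, by 6.45-fold and 2.87-fold.

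Among the 14 single libraries, 1 strain stood far above wild-type. In math-33, which lacks a ubiquitin protease with a MATH domain and which the study describes as growing slowly and without synchrony, 2721 reads fell on MSP genes, or 581 RPM (95% exact Poisson interval 559 to 603), against 2220 reads or 30.3 RPM (29 to 31.6) in wild-type. The intervals cover counting error only, and with 1 library per strain the difference has no replicate check. All 39 members were past 2-fold at any level, with a median log2 ratio of 3.53 (0.5 RPM added to both). Over the 8141 genes at 10 RPM or more in either library the median was -0.74, and 21.1% of them were past 2-fold higher. Of the members, 32 reached 10 RPM in math-33 and 0 in wild-type, where the highest had 1.39 RPM. Any member at 10 RPM in math-33 was thus past 2-fold beforehand, and the count of 32 is no separate result. msp-56 led with 29.2 RPM (24.6 to 34.6) in math-33 against 1.08 RPM (0.853 to 1.34) in wild-type. msd-4 had a log2 ratio of 4.13, msp-36 of 4.07, msd-3 of 3.99, msd-1 of 3.94, msp-40 of 3.87, msp-31 of 3.68 and msd-2 of 3.61. The lowest, msp-74, had 2.99 RPM (1.63 to 5.02) in math-33 against 0.136 RPM (0.0654 to 0.251) in wild-type.

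Other lists moved in the same library. Small RNAs at MSP partners and sperm proteins summed to 665 RPM in math-33 and 125 RPM in wild-type, those at markers of the male soma to 169 and 8.32 RPM, and those at oocyte markers to 458 and 1173 RPM. The part of males, of worm stage and of the mutation itself in this library cannot be told apart.

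The other 12 mutant libraries were all below wild-type, which was also the deepest library. mut-16, which lacks the scaffold of Mutator foci where secondary small RNAs are made, had 18.8 RPM (95% exact Poisson interval 15 to 23.4), wago-1, lacking an Argonaute of that pathway, 17.4 RPM (14.7 to 20.4), hgo-1 16.2 RPM and C33G3.6 13.6 RPM. The values were 10.1 RPM in hpo-40, 9.16 RPM in rde-8, 8.61 RPM in rsd-2, 8.22 RPM in Y57G11C.3 and 7.55 RPM in nyn-2; nyn-1. Lowest were simr-1 with 5.68 RPM (3.47 to 8.78), F37C4.5 with 5.54 RPM and simr-1; hpo-40 with 5.25 RPM (3.49 to 7.59), with neighbouring strains in this order overlapping in their intervals. The single simr-1 library, with 20 reads on MSP genes and 23 members at 0, was below both replicated simr-1 libraries at 20 °C (28.8 and 30.6 RPM), whereas the single wild-type library, at 30.3 RPM, was close to the replicated wild-type libraries (25.7 and 30.2 RPM).

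**Figure D5:**
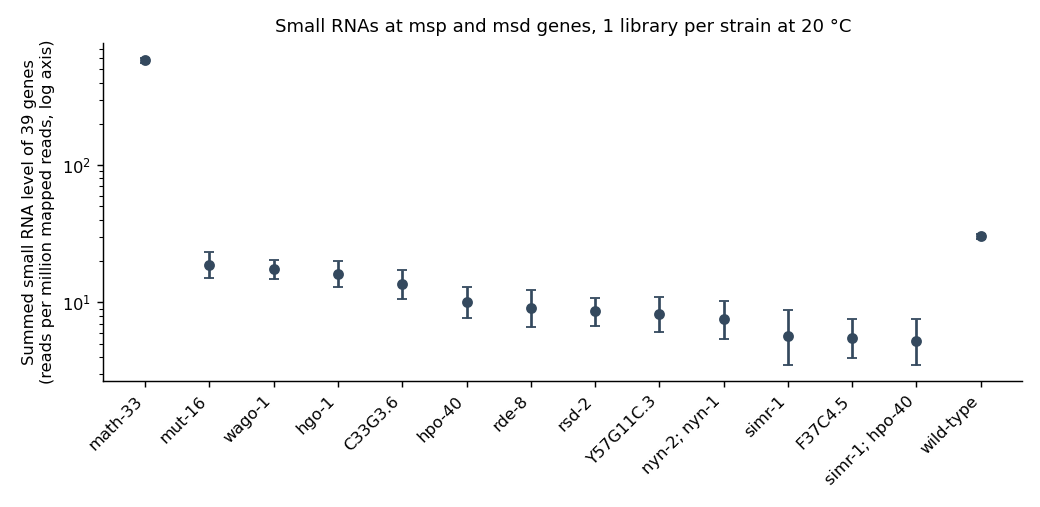
Summed small RNA level of the 39 genes in each single library at 20 °C (RPM, log axis; bars are 95% exact Poisson intervals, which cover counting error only). math-33 reaches 581 RPM, wild-type 30.3 RPM and the 12 other strains lie between 5.25 and 18.8 RPM.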

How the data were processed

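Small RNA and mRNA tables were analysed as deposited. For small RNAs the authors clipped and quality-filtered reads (FASTX-Toolkit), mapped them to WS258 with Bowtie2 and assigned them to genes with featureCounts of Subread, without a strand option, dividing reads between genes of equal overlap; miRNAs and piRNAs were left out. For mRNA (a directional kit) the authors trimmed reads with Cutadapt and used HISAT2 and Salmon, without naming the source of the gene values. The deposited values of both kinds are expected counts (estimated counts that need not be whole), which the authors had not normalized, and they were rounded before testing. Values of repeated gene names were summed. A read of near-identical copies was placed on 1 copy or split, so levels of single copies are less certain than sums.

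Groups were taken from the labels. Genes whose counts in the libraries of a comparison summed to 10 or more were tested with edgeR 4.0.16 (quasi-likelihood test, TMM, R 4.3.3), fitted on the groups compared, and p-values were adjusted by the Benjamini-Hochberg method over all genes. A gene was called, written as rose or fell, at an adjusted p no higher than 0.05 with a change of 2-fold or more, and for small RNAs also only where 1 of the group means reached 10 RPM. RPM used the genome-mapped reads the study gives per library, and ratios of single libraries used an added 0.5 RPM. DESeq2 1.42.0, other scalings, other filters, a replicate block, sums over copies of 1 protein and leaving out each library were tried as alternatives. Steps were tested on simulated data. Named genes were the members with the highest mean mRNA (4) and small RNA (3) levels, all msd genes, and the largest called rise and fall in each genotype comparison and interaction; other members are named where a count is small or where their values were of note, after these had been seen. Members and lists were chosen with earlier results of these data known.

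Replicates of a group differed by more than counting noise. Same-numbered mRNA libraries deviated together in generation 7 (correlations 0.409 to 0.645) and generation 10 (0.105 to 0.309). In generation 7 unlike-numbered replicates 1 and 2 of the genotypes did so too (0.454 and 0.455). No label pairs the numbers, so every main fit was unpaired, and a replicate block was tried as an alternative. An SD beside a level is the spread over the libraries of a group. The SE beside a fold change was derived from that fold change and its test statistic. Only the Poisson intervals of single libraries come from counted reads. Sequences and coding positions were taken from RefSeq WBcel235. The gene starts before which bases were searched were those of WS258 in the small RNA tables. Only 9 of the 39 members had the same position in both annotations. The names mfp-1, mfp-2, mfp-3 and mpop-1 matched no gene of the tables.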

Additional observations from a re-analysis of the deposited data

Results flagged for a closer look

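The change in MSP mRNA from the first to the second generation at 25 °C differed between simr-1 and wild-type animals by a test of the difference itself, an interaction fitted with edgeR's quasi-likelihood test, for 31 of 37 tested members. msp-63 had the largest called difference, 3.72 on the log2 scale, and its level did not exceed 1.66 CPM in any library. This comparison was added after the data had been seen.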

How the results depend on the processing

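Leaving out 1 library at a time gave 0 to 1 called members at 20 °C, 0 to 1 in generation 1, 33 to 35 in generation 2, 24 to 27 in generation 7 and 4 to 10 in generation 10 for simr-1 against wild-type mRNA. It gave 9 to 22 and 24 to 26 in simr-1 and 11 to 21 and 18 to 27 in wild-type for generation 1 against 20 °C and generation 10 against 1, 36 (simr-1) and 20 to 30 (wild-type) for generation 2 against 1, and 0 to 3 (generation 10) and 29 to 32 (generation 2) for the interactions; small RNA counts are 0 in each refit, since no member reaches 10 RPM, and without that minimum they are given with the results. The 1 member called at 20 °C became 0 with DESeq2, filterByExpr or summed copies, 2 with library size scaling, without a filter or with a replicate block, and 3 without the fold limit. Without the fold limit counts were 4 in generation 1, 21 in generation 10, 27 for simr-1 generation 1 against 20 °C and 2 for the generation 10 interaction. Summing copies of 1 protein leaves 13 to 17 features, of which 16, 11 and 1 were called in generations 2, 7 and 10, 5 and 11 in simr-1 and 9 and 11 in wild-type for generation 1 against 20 °C and generation 10 against 1, 16 (simr-1) and 11 (wild-type) for generation 2 against 1 and 13 for its interaction. The balance of generation 10 turned to more members lower, 7 called (3 higher, 4 lower) without a filter on low counts and 6 (2 higher, 4 lower) with a replicate block; the block also gave 1 in the generation 10 interaction. The cause of these changes was not tested. For small RNAs without the minimum of 10 RPM, counts were 2, 4, 1, 23, 1 and 35 in generation 1, generation 2, wild-type generation 10 against 1, and simr-1 generation 1 against 20 °C, 10 against 1 and 2 against 1, and 3 and 4 in the interactions of generations 10 and 2. With copies summed, 1 feature passed in generation 2, in simr-1 generation 1 against 20 °C and generation 2 against 1, and in the generation 2 interaction. The log2 ratio of summed small RNAs in generation 1 was -0.77 per mapped read, -1.31 per counted read and -1.44 by TMM, and in generation 7 it was 0.54 per mapped read and 0.80 by TMM; in wild-type generations 1 and 2 a smaller share of mapped reads was counted on genes (41.1% to 43.5%). Of 314 alternatives that left out no library 275 kept the direction and stayed within 1.5 times the count or 1 SD of the level. These 275 include alternatives that gave 0 where the main count was also 0. For small RNAs the 10 RPM minimum fixed most such results beforehand, so the 275 do not measure how stable the small RNA results are.

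In the other genotype comparisons correlations of same-numbered libraries were not all over 0.1 over 3 pairs. mRNA had 0.013 to 0.133 at 20 °C, -0.109 to -0.064 in generation 1 and 0.050 to 0.663 in generation 2. Small RNA, with 2 pairs, had 0.365 in generation 2 and -0.140 to 0.086 in the remaining genotype comparisons. The replicate block moved no other mRNA count past 1.5 times. For small RNAs without the minimum of 10 RPM it gave 10 for generation 2, 9 and 2 for the interactions of generations 2 and 10, and 19 and 35 for simr-1 generation 1 against 20 °C and generation 2 against 1. Numbers of small RNA generation 10 and of wild-type generation 2 against 1 had correlations of -0.140 and -0.138, and without the minimum the crossed pairing called 0 of 15 and 0 of 18 members. Scaling by library size moved the median of all genes by up to 0.311 (mRNA) and by -0.863 to 0.659 (small RNA). Depth limits the small RNA values of single members, many of which rest on under 10 reads, and near-identical copies limit all per-gene values.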
